A study of Mus musculus with 12 samples.

Results

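The circadian clock genes described here are Arntl (also written Bmal1), Clock, Per1, Per2, Per3, Cry1, Cry2, Nr1d1, Nr1d2 and Dbp. They were found by matching the RefSeq accession of each array probe to a gene symbol, which gave 17 probes for these 10 genes, of 41174 probes and 17305 named genes on the whole array. RNA of isolated mouse pancreatic islets was hybridised to 12 Agilent 4x44K arrays in 1 colour, with n = 3 arrays for each of 4 genotypes. WT mice are wild type. PPARγ2KO mice (PPARg2 KO in the labels) lack isoform 2 of the nuclear receptor PPARγ. The ob/ob mice (OB KO in the labels) lack leptin, the satiety hormone of fat tissue, and become obese. POKO mice (labelled OB PPARg2 double KO) lack both. All groups shared the mixed background C57BL/6 x Sv129 and a chow diet. The labels give an age of 4 weeks, where the study's text gives a different age. Per the study's text all mice were female. Per its methods each array held a pool of mice, the room had a light/dark cycle, and the islets were cultured overnight before RNA was taken. The time of day of islet collection is not given in the sources used here. The labels limit neither mutation to the islet or the beta cell.

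The molecular clock is a feedback loop of transcription. The proteins of Arntl and Clock pair up and switch on genes through E-box elements, among them the Per, Cry, Nr1d and Dbp genes. The PER and CRY proteins then return to the nucleus and inhibit that pair, and the nuclear receptors NR1D1 and NR1D2 (REV-ERB alpha and beta) repress Arntl through ROR response elements. DBP drives D-box genes as an output arm. In a synchronised tissue Arntl therefore peaks out of phase with Dbp, Nr1d1 and the Per genes. In beta cells the clock is known to take part in insulin secretion. A bulk array shows a mean over all cells of the islet preparation. A lower signal from fewer cells of a type cannot be told apart from less RNA per cell.

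These elements can be read in the promoters of several members. RefSeq promoter windows of the GRCm38.p6 build (250 bases before to 50 after a start site) were at hand for 9 of the 10 members, in 13 windows, and not for Per2. Searched on both strands were the E-box CACGTG, the D-box TTATGTAA, the cAMP response element TGACGTCA and the ROR response element by its consensus. The E-box, the site of the Arntl and Clock proteins, was found in windows of 2 members, Per1 and Cry1, where 7.15% of all 32851 windows hold it. The D-box was found in Per3, in 2 copies, where 0.938% of all windows hold it. The ROR response element was found in Arntl, where 0.384% of all windows hold it. The cAMP response element, held by 1.79% of all windows, was in none of the 13 windows. A match shows only that the letters are there. Another window of Per1 held no E-box, and another of Arntl no ROR response element. The stretches are shown because the loop acts through elements with these letters, and binding to these copies was not tested. They are given 5′ to 3′ on the strand of the gene, with the element in capitals. The Per1 stretch is chr11:69098748-69098823 on the plus strand, with its E-box starting at position -166 from the start site. The Cry1 stretch is chr10:85185074-85185149 on the minus strand, with its E-box at position -60. The Per3 stretch is chr4:151044781-151044905 on the minus strand, with its D-boxes at positions -205 and -158. The Arntl stretch is chr7:113207527-113207556 on the plus strand, with the ROR response element at position 27 after the start site.
Per1: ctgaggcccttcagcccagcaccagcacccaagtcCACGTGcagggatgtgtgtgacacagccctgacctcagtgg
Cry1: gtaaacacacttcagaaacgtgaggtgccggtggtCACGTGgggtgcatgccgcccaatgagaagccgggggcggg
Per3: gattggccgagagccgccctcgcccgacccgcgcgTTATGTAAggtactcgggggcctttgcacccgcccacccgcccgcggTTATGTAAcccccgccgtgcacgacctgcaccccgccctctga
Arntl: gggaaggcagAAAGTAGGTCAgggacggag

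Brightness before normalization followed genotype. The median processed signal was 20.9 to 27.0 in WT, 23.0 to 30.4 in PPARγ2KO, 30.7 to 40.6 in ob/ob and 31.6 to 33.6 in POKO, so that all 6 leptin-deficient arrays lay above all 6 lean ones. Spots well above background, by the scanner software's own flag, made up 54.3 to 57.5% in WT, 57.1 to 60.9% in PPARγ2KO, 60.4 to 64.9% in ob/ob and 61.4 to 61.5% in POKO. The part of this in the differences between genotypes was not tested. The arrays lie on 3 slides, each with 1 array of every genotype, and a genotype has the same position on every slide, so position and genotype cannot be told apart. Pparg, the targeted gene, read 8.87, 8.98 and 8.85 in WT and 8.54, 9.77 and 9.61 in ob/ob, as normalized log2 signal. It read 7.44, 7.27 and 6.60 in PPARγ2KO and 6.41, 7.11 and 7.14 in POKO, so all 6 arrays labelled as lacking PPARγ2 lay below all 6 others. Whether that probe lies in the deleted part was not determined. The Lep probe read 1.25 to 1.42 over the 12 arrays, in every genotype alike, and so checks nothing in islets. All 9 beta cell markers with a probe were well above background on every array of WT, ob/ob and POKO, and 8 of them on every array of PPARγ2KO, with a summed log2 signal of 19.3 to 19.9. Acinar genes, which do not belong to islets, summed to 20.8 to 21.0 in all 4 groups. The 6 T cell markers summed to 8.64 to 8.72 in WT, where 3 of them were above background on no array, to 7.89 to 10.4 in PPARγ2KO, 9.85 to 11.3 in ob/ob and 9.12 to 10.8 in POKO. The part of acinar and of T cell RNA in the clock gene values was not tested.

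Of the 10 clock genes, 8 had a probe well above background on all 12 arrays. Each gene is given by its brightest probe, the one with the highest mean signal, as log2 of the quantile-normalized signal. The exceptions were Cry1, above background on 11 arrays, and Per3, above it on 6. Of the 17 probes, 1 (of Clock) was well above background on none. Signals of different probes depend on the probe and are not compared with each other.

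**Figure D1:**
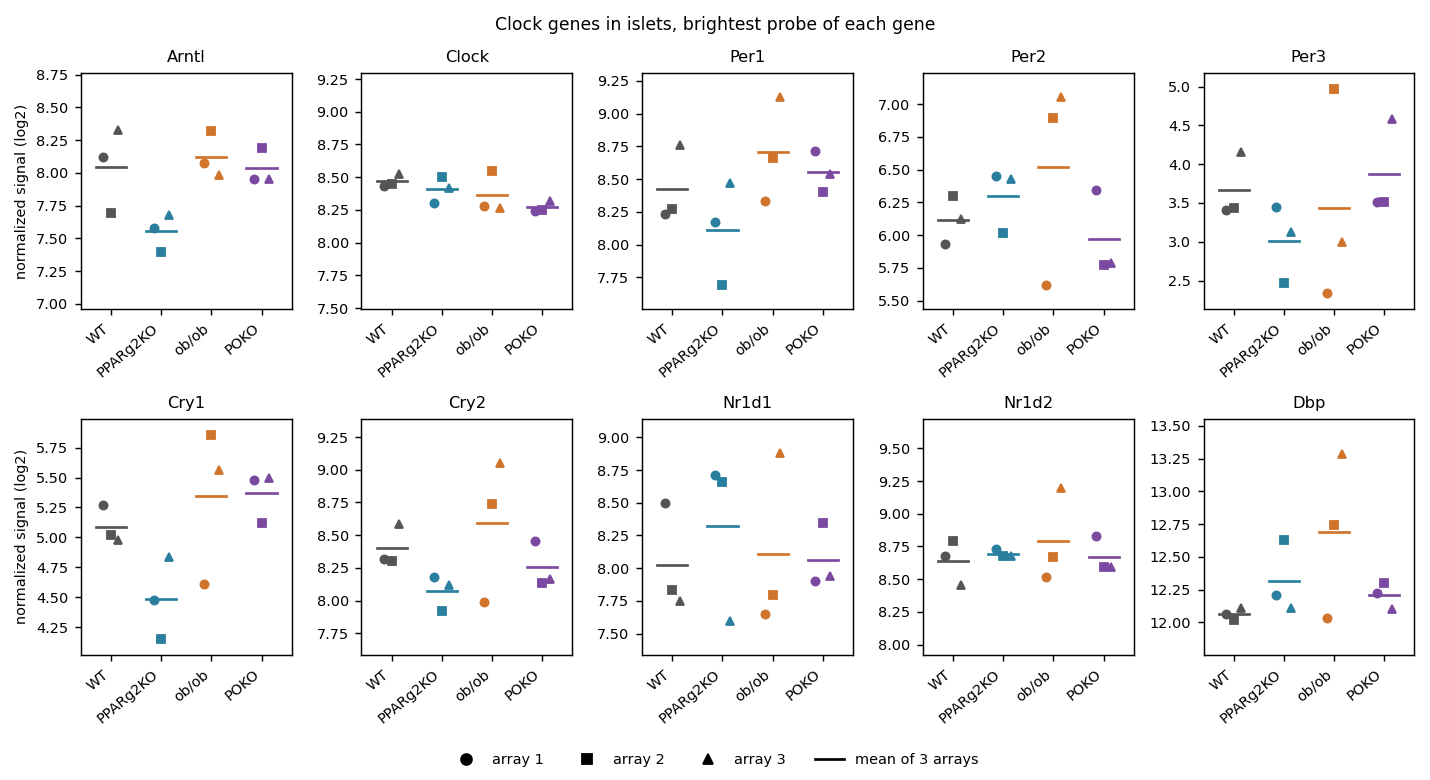
Normalized log2 signal of the 10 clock genes (y axis, own range in each panel) by genotype (x axis), with circles, squares and triangles for arrays 1, 2 and 3 and a line for the mean of 3 arrays. Arntl is lowest in the 3 PPARγ2KO arrays, from 7.40 to 7.68, and Dbp runs from 12.03 to 13.28 in ob/ob but from 12.02 to 12.11 in WT.

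The positive arm of the loop was Arntl and Clock. Arntl encodes the factor without which the clock stops. It read 8.13, 7.69 and 8.33 in WT, 7.58, 7.40 and 7.68 in PPARγ2KO, 8.08, 8.32 and 7.98 in ob/ob, and 7.95, 8.19 and 7.96 in POKO. All 3 PPARγ2KO arrays lay below all 9 others, while WT, ob/ob and POKO overlapped and do not differ in their order beyond their spread. The mean of PPARγ2KO was lower than that of WT by a log2 difference of -0.49 ± 0.17 (SE), with adjusted p = 0.483. Against the same PPARγ2KO arrays, ob/ob was higher by 0.57 ± 0.17 (adjusted p = 0.127) and POKO by 0.48 ± 0.17 (adjusted p = 0.353). None of these differences passed the threshold of an adjusted p of 0.05. The 3 comparisons share the PPARγ2KO arrays.

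Clock, the partner of Arntl, had the smallest spread of the members in ob/ob and in POKO. It read 8.43, 8.45 and 8.52 in WT, 8.30, 8.50 and 8.42 in PPARγ2KO, 8.28, 8.55 and 8.27 in ob/ob, and 8.24, 8.25 and 8.32 in POKO. The POKO arrays all lay below the WT arrays, by a log2 difference of -0.20 ± 0.09 (adjusted p = 0.329). The other groups overlapped. A dimmer Clock probe that is above background on all arrays gave the same order of WT as highest (6.61 ± 0.12, SD, n = 3) and POKO as lowest (6.30 ± 0.16), with overlapping arrays.

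The negative arm holds the Per and Cry genes. Per1, the period gene that also answers quickly to cAMP and glucocorticoid signals, read 8.23, 8.28 and 8.76 in WT, 8.17, 7.69 and 8.47 in PPARγ2KO, 8.34, 8.66 and 9.13 in ob/ob, and 8.72, 8.40 and 8.54 in POKO. All 4 groups overlapped with their neighbours in the order ob/ob, POKO, WT, PPARγ2KO. The difference of ob/ob from PPARγ2KO was 0.60 ± 0.25 in log2 (adjusted p = 0.240).

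Cry1, the stronger repressor of the CRY pair, had the same group at the bottom as Arntl. It read 5.27, 5.02 and 4.98 in WT, 4.48, 4.15 and 4.84 in PPARγ2KO, 4.61, 5.86 and 5.56 in ob/ob, and 5.48, 5.12 and 5.49 in POKO. The PPARγ2KO arrays lay below all WT and all POKO arrays and overlapped those of ob/ob through ob/ob array 1. The log2 difference was -0.60 ± 0.30 for PPARγ2KO vs. WT (adjusted p = 0.577), 0.85 ± 0.30 for ob/ob vs. PPARγ2KO (adjusted p = 0.175) and 0.88 ± 0.30 for POKO vs. PPARγ2KO (adjusted p = 0.349). On 1 of the 3 PPARγ2KO arrays this probe was not well above background. Its other probe was above background on 3 of 12 arrays and on none of PPARγ2KO.

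Cry2 read 8.32, 8.31 and 8.59 in WT, 8.18, 7.92 and 8.12 in PPARγ2KO, 7.99, 8.74 and 9.05 in ob/ob, and 8.46, 8.14 and 8.17 in POKO. PPARγ2KO lay below WT without overlap, by -0.33 ± 0.24 (adjusted p = 0.656), and the ob/ob arrays overlapped those of every other group. Per3, a paralogue that is dispensable for the loop, was near background: it was above it on 1 of 3 arrays in WT, 0 of 3 in PPARγ2KO, 2 of 3 in ob/ob and 3 of 3 in POKO. Its POKO mean of 3.87 was 1.81-fold higher than that of PPARγ2KO at 3.01 (adjusted p = 0.629). That fold is an estimate and not a lower limit, taken against a PPARγ2KO signal not well above background.

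Per2, a core period gene, has a pair of probes that disagree. The brighter probe read 5.93, 6.30 and 6.12 in WT, 6.45, 6.02 and 6.43 in PPARγ2KO, 5.62, 6.89 and 7.06 in ob/ob, and 6.34, 5.77 and 5.79 in POKO. There ob/ob array 1 was the lowest of all 12 arrays and ob/ob arrays 2 and 3 the highest. The dimmer probe read 4.76, 5.10 and 5.36 in WT, 4.32, 4.62 and 4.52 in PPARγ2KO, 3.70, 4.33 and 3.96 in ob/ob, and 3.85, 4.28 and 4.48 in POKO. Here every WT array lay above all 9 others.

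For ob/ob vs. WT the log2 difference of Per2 was 0.40 (95% interval -0.38 to 1.19) by the brighter probe, with adjusted p = 0.451, and -1.08 (-1.57 to -0.58) by the dimmer, with adjusted p = 0.0270. For leptin-deficient vs. lean (ob/ob and POKO against WT and PPARγ2KO) it was 0.04 by the brighter probe and -0.68 by the dimmer, with adjusted p = 0.0336. The dimmer Per2 probe, which fell in both, was the only 1 of the 17 member probes called in any of the 9 comparisons. Of all probes 11.1% were called in ob/ob vs. WT and 9.04% in leptin-deficient vs. lean, so that count is no result about the members. Without WT array 2, ob/ob array 2 or ob/ob array 3 the ob/ob vs. WT call was lost, with adjusted p = 0.0950, 0.0535 and 0.0766. Scaling to the 75th percentile also ended it (-0.79, adjusted p = 0.0625), as did a fit on ob/ob and WT alone (adjusted p = 0.0923). The leptin-deficient vs. lean call was lost without any 1 of WT array 2, PPARγ2KO arrays 1 and 2, ob/ob array 3 and POKO arrays 1, 2 and 3, with adjusted p from 0.0533 to 0.0792. With normexp background correction of the median signal the dimmer probe differed by only -0.14 in ob/ob vs. WT (adjusted p = 0.0391). In leptin-deficient vs. lean it differed by -0.09 (adjusted p = 0.0626), so the size of both differences depends on the background correction. The probes carry the same accession, so which of them follows the Per2 transcript was not determined.

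**Figure D2:**
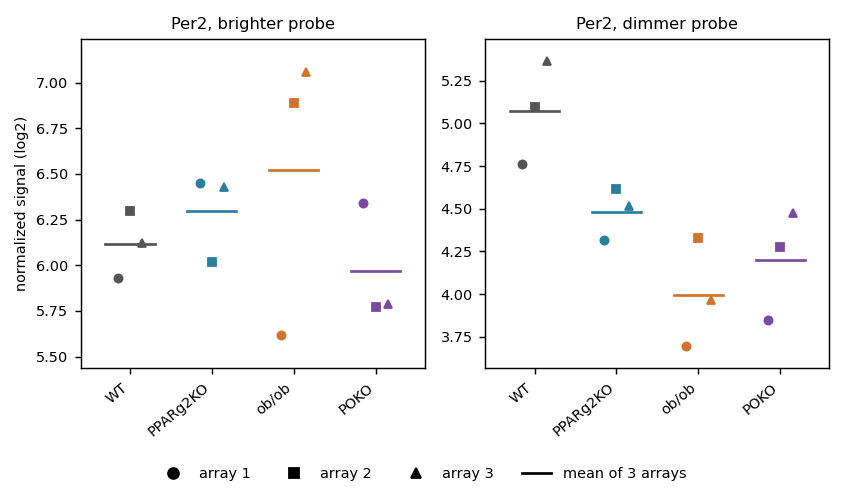
Normalized log2 signal (y axis) of the brighter and the dimmer Per2 probe by genotype (x axis), 3 arrays each, with a line for the mean. The brighter probe spreads from 5.62 to 7.06 in ob/ob, while the dimmer is highest in the 3 WT arrays, from 4.76 to 5.36.

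The repressors of Arntl and the output factor complete the loop. Nr1d1 read 8.50, 7.83 and 7.75 in WT, 8.71, 8.66 and 7.60 in PPARγ2KO, 7.65, 7.80 and 8.88 in ob/ob, and 7.91, 8.34 and 7.94 in POKO. Arrays of 1 group differed here by more than a whole log2 unit in PPARγ2KO and ob/ob, and the means of the 4 groups lay between 8.03 and 8.32. Nr1d2 was steadier, at 8.67, 8.79 and 8.45 in WT, 8.73, 8.68 and 8.68 in PPARγ2KO, 8.52, 8.67 and 9.20 in ob/ob, and 8.83, 8.60 and 8.59 in POKO. Its 4 groups overlapped.

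Dbp, an activator of D-box genes, read 12.06, 12.02 and 12.11 in WT, 12.21, 12.63 and 12.11 in PPARγ2KO, 12.03, 12.74 and 13.28 in ob/ob, and 12.23, 12.30 and 12.10 in POKO. The WT arrays differed by under 0.1, whereas ob/ob spanned from the level of WT to the highest Dbp value of the series. The log2 difference of ob/ob vs. WT was 0.62 ± 0.27 (95% interval 0.02 to 1.23, adjusted p = 0.151). The difference of PPARγ2KO vs. WT was 0.25 ± 0.27 (adjusted p = 0.774), with arrays that did not overlap, by a gap of less than the rounding of these values. In the interaction, which sets the POKO vs. ob/ob difference against that of PPARγ2KO vs. WT, the value was -0.73 ± 0.38 (adjusted p = 0.418).

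**Figure D3:**
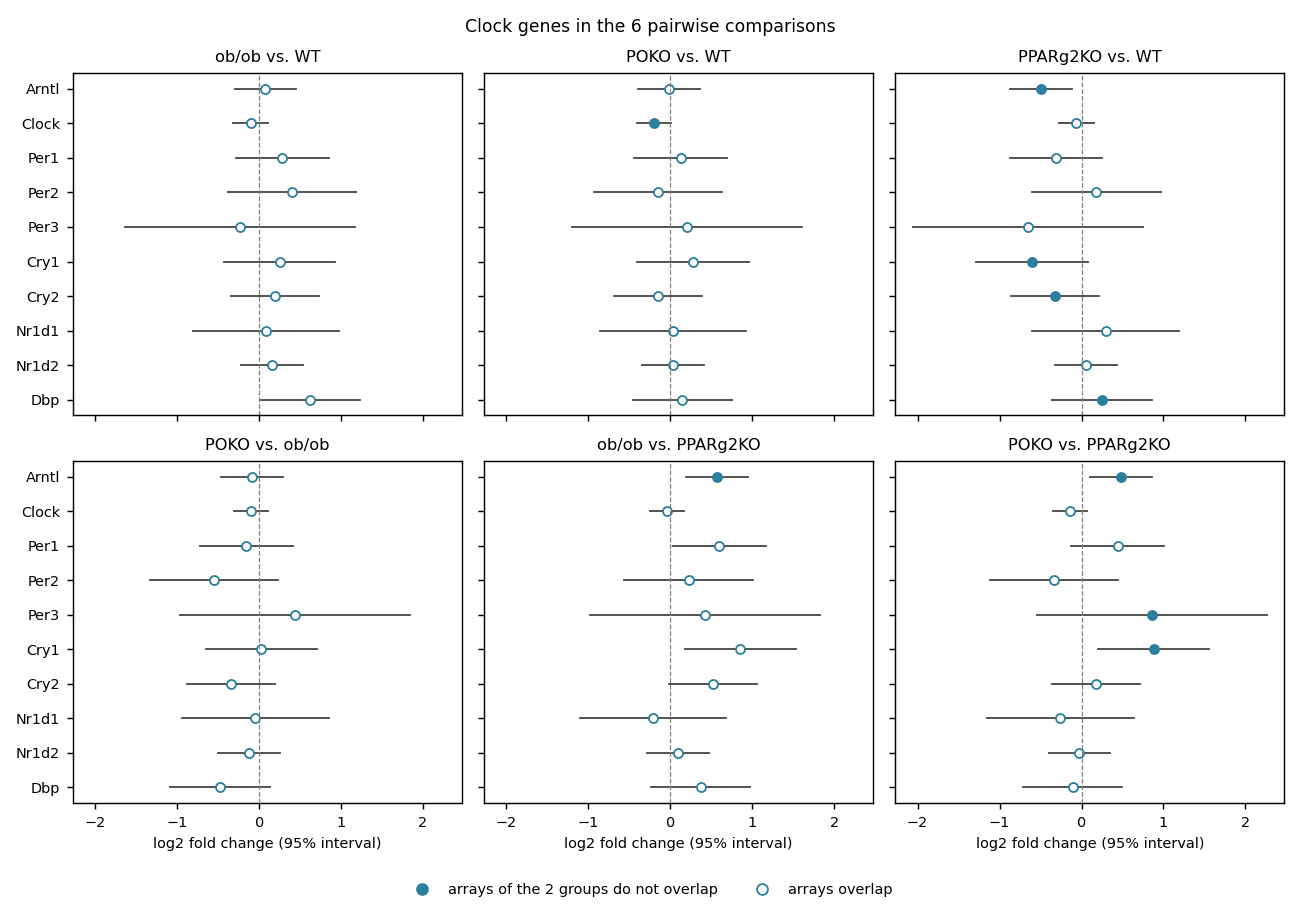
Log2 fold change (x axis) of each clock gene (y axis, brightest probe) in the 6 pairwise comparisons, with 95% intervals of the fit; filled points mark genes whose 3 arrays in each group do not overlap. The intervals leave out 0 for Arntl in the 3 comparisons with PPARγ2KO, for Cry1 in ob/ob and POKO vs. PPARγ2KO, for Per1 in ob/ob vs. PPARγ2KO and for Dbp in ob/ob vs. WT, and include it elsewhere.

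Across the 9 comparisons no member was called by its brightest probe in the limma fit. Of all probes, an adjusted p of at most 0.05 was reached by 11.1% for ob/ob vs. WT and by 9.04% for leptin-deficient vs. lean. It was 0.194% in POKO vs. WT, 0.00486% in POKO vs. ob/ob, 0.00486% in ob/ob vs. PPARγ2KO and 0.00971% in POKO vs. PPARγ2KO. It was 0% in PPARγ2KO vs. WT, in PPARγ2-null vs. intact and in the interaction. With 10 genes, a count of 0 lies near those shares and is no result about the members.

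Counted at an unadjusted p below 0.05, 1 of 10 members passed in ob/ob vs. WT (31.1% of all probes), 0 in POKO vs. WT (16.4%), 1 in PPARγ2KO vs. WT (9.37%) and 0 in POKO vs. ob/ob (9.28%). The count was 3 in ob/ob vs. PPARγ2KO (19.3%), 2 in POKO vs. PPARγ2KO (11.1%) and 2 in leptin-deficient vs. lean (28.2%). It was 1 in PPARγ2-null vs. intact (3.76%) and 0 in the interaction (13.9%). In ob/ob vs. WT the members thus passed less often than the whole array did by share, in ob/ob vs. PPARγ2KO more often, and in neither was the difference tested.

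Arrays that do not overlap between groups were counted the same way. In ob/ob vs. WT 0 of 10 members did not overlap, where 41.2% of all probes did not, and in POKO vs. WT 1 of 10 (Clock), where 34.8% did not. In PPARγ2KO vs. WT it was 4 of 10 (Arntl, Cry1, Cry2 and Dbp), where 12.7% of all probes did not overlap. In POKO vs. ob/ob it was 0 of 10 (17.7%), in ob/ob vs. PPARγ2KO 1 of 10 (Arntl, 21.6%), and in POKO vs. PPARγ2KO 3 of 10 (Arntl, Per3 and Cry1, 22.4%). The members' share was furthest above that of all probes in PPARγ2KO vs. WT, a comparison in which the fit called 0 probes of the whole array. There the lowest PPARγ2KO array of Dbp read 12.108 and the highest WT array 12.107. For Arntl the highest PPARγ2KO array read 7.681 and the lowest WT array 7.692, so both separations were narrow. The median log2 fold change of the 10 members was 0.17 in ob/ob vs. WT, where that of all probes was -0.08, and -0.19 in PPARγ2KO vs. WT, where that of all probes was -0.03. By direction 8 members were higher in ob/ob than in WT and 2 lower, and 4 were higher in PPARγ2KO than in WT and 6 lower.

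The spread between arrays of 1 genotype was itself uneven. In ob/ob the SD over 3 arrays had a median of 0.588 over the 10 members, against 0.176 in WT, 0.260 in PPARγ2KO and 0.168 in POKO. For 9 of the 10 members the SD was largest in ob/ob, the exception being Arntl. Among the 8 members above background on all arrays it was largest in ob/ob for 7. Over the 20518 probes of the whole array that were above background on all arrays the median SD was 0.224 in ob/ob, 0.215 in WT, 0.236 in PPARγ2KO and 0.125 in POKO, and 31.3% of them had their largest SD in ob/ob. With n = 3 arrays an SD is itself imprecise, and members that vary together are not independent.

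**Figure D4:**
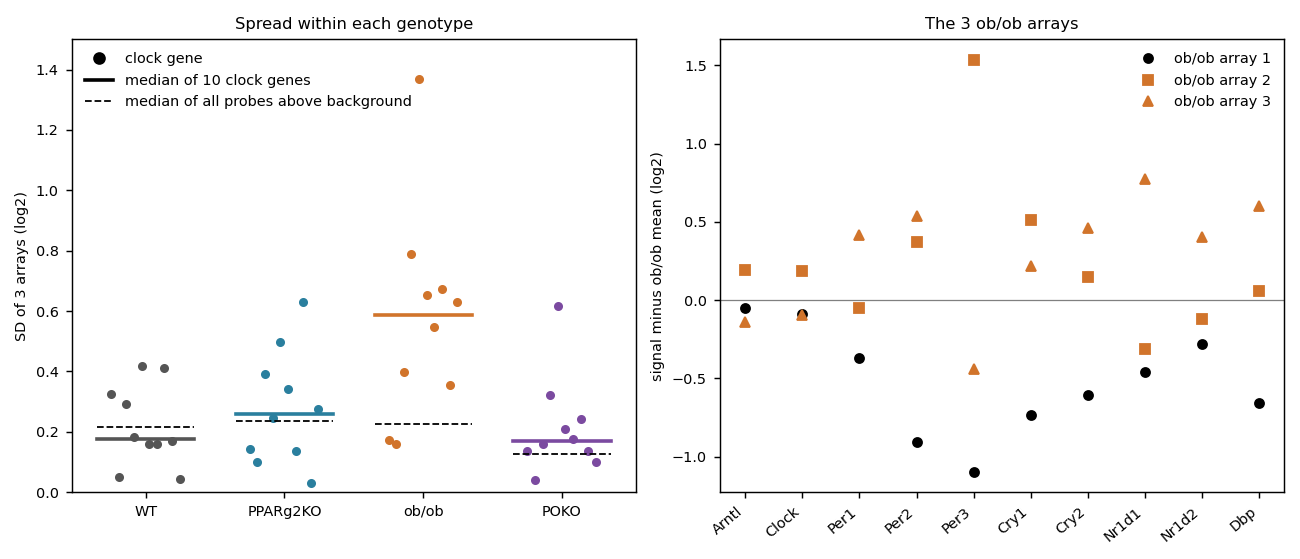
Left, SD of 3 arrays (log2, y axis) for each clock gene by genotype, with the median of the 10 genes as a solid line and that of all probes above background as a dashed line. Right, signal of each ob/ob array minus the ob/ob mean (log2, y axis) for each clock gene, where array 1 is the lowest for 8 of 10 genes.

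The ob/ob spread came from the same arrays in most members. Array 1 was the lowest ob/ob array for 8 of 10 members (Per1, Per2, Per3, Cry1, Cry2, Nr1d1, Nr1d2 and Dbp), where it was the lowest for 43.1% of all probes above background. Array 3 was the highest for 6 members (Per1, Per2, Cry2, Nr1d1, Nr1d2 and Dbp), where it was the highest for 37.2% of those probes. The median deviation of the members from the ob/ob mean was -0.53 on array 1, 0.16 on array 2 and 0.41 on array 3. Arntl, which in a synchronised tissue peaks out of phase with Dbp, Nr1d1 and the Per genes, was at 8.08, 8.32 and 7.98 on the same arrays.

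Other measures moved on these arrays too. Fibroblast markers, all 4 well above background, summed to 14.4 on ob/ob array 1 and to 12.3 and 12.1 on arrays 2 and 3, and duct markers to 16.2, 15.6 and 15.6. T cell markers, all 6 above background, summed to 9.85, 10.07 and 11.3, and B cell markers, all 5 above background, to 12.64, 12.38 and 11.75. Whole lists of other genes followed the order of the members, with smaller median deviations from the ob/ob mean. These were -0.24, 0.07 and 0.29 for glucocorticoid-responsive genes, -0.23, 0.04 and 0.26 for clock partners and output factors, and -0.15, 0.01 and 0.18 for immediate early genes. Kinases and ligases of clock proteins stood at -0.11, 0.09 and 0.08 and clock-controlled genes at -0.04, 0.00 and 0.11. Among the glucocorticoid-responsive genes Mt2, a metallothionein gene, read 14.07, 16.57 and 17.10. The median processed signal of these arrays was 30.7, 37.5 and 40.6. The part of any of these in the clock gene values was not tested.

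Without ob/ob array 1 several members passed the threshold. In ob/ob vs. WT Dbp was then higher by 0.95 in log2 (adjusted p = 0.0204) and Per2, by its brighter probe, by 0.86 (adjusted p = 0.0376), so 2 of 10 members were called, where 12.5% of all probes were. In ob/ob vs. PPARγ2KO Cry1 was higher by 1.22 (adjusted p = 0.0218) and Cry2 by 0.82 (adjusted p = 0.0262), 2 of 10 where 5.29% of all probes were called. In leptin-deficient vs. lean Cry1 was higher by 0.75 (adjusted p = 0.0199), 1 of 10 where 11.7% were called. These values rest on 2 ob/ob arrays that were kept after the values of the third had been seen, and with all 3 arrays none of these calls was made.

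The relation of Arntl to the other 9 members across arrays was tested because the loop sets some of them, Dbp, Nr1d1 and the Per genes, out of phase with it. Over all 12 arrays r was 0.66 with Cry1 (rho = 0.52) and 0.61 with Per1 (rho = 0.52), the highest of the 9 (permutation test, 100000 resamples, adjusted p = 0.152 for both r). Without PPARγ2KO arrays 1 and 2, the arrays farthest from the Arntl median, r fell to 0.28 and 0.20, so these relations rest on those arrays. As deviations from the genotype means, r with Nr1d2 was -0.53 (rho = -0.57) and with Per3 0.47 (rho = 0.52). It was 0.32 with Clock, 0.29 with Per1, 0.23 with Cry1, 0.15 with Cry2, -0.02 with Per2, -0.22 with Nr1d1 and -0.12 with Dbp. None of the 9 passed after Benjamini-Hochberg (two-sided exact permutation within genotypes, lowest adjusted p = 0.625 for r).

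All 45 pairs of members were also taken within genotypes, a step added after these values had been seen. The closest were Per2 with Cry2 (r = 0.93, rho = 0.84, exact permutation p = 0.0100, adjusted p = 0.226) and Per1 with Cry2 (r = 0.81, rho = 0.84, exact permutation p = 0.00463, adjusted p = 0.208), over 12 arrays. Without the ob/ob arrays r was 0.74 and 0.82. The pair of Cry2 and Dbp had r = 0.74 with all arrays and -0.33 without those of ob/ob, and so rested on them. None of the 45 pairs passed the correction.

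The Dbp signal less the Arntl signal of each array was compared between arrays only, since its size depends on the probes. In log2 it was 3.94, 4.33 and 3.78 in WT, 4.63, 5.23 and 4.43 in PPARγ2KO, 3.96, 4.43 and 5.30 in ob/ob, and 4.27, 4.11 and 4.14 in POKO. The PPARγ2KO arrays lay above all WT and POKO arrays, and ob/ob overlapped every group. POKO had the smallest spread, 4.17 ± 0.09 (SD, n = 3), and ob/ob the largest, 4.56 ± 0.68. No test was made of this difference.

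The genes whose pattern over the 12 arrays was most like that of Arntl, among 11698 genes above background on all arrays, were Ago4 (r = 0.84), Birc6 (0.83), Il6ra (0.82), Icam1 (0.82) and Snapc1 (0.82). Most opposed were Commd4 (r = -0.88), Snorc (-0.87), Slc6a13 (-0.86), Gtf2h4 (-0.86) and Polr2j (-0.85). These are the extremes of 11698 values of r, with the genotype means left in, and were not tested, so they show no relation to Arntl. Snorc read 6.10, 6.21 and 5.48 in PPARγ2KO and at most 4.74 on any of the other 9 arrays. Of the members, Per1 stood 294th in likeness to Arntl, with r = 0.61.

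For Dbp the most alike genes were Kbtbd7 (r = 0.96), Zmym6 (0.95), Pard6a (0.95), Dipk1b (0.95) and Napb (0.95), and the most opposed Relb (-0.98), Pepd (-0.96), Nrp1 (-0.95), Extl3 (-0.94) and Cnot6 (-0.94). Relb, a subunit of NF-kappaB, read 11.79, 11.34 and 11.01 on ob/ob arrays 1, 2 and 3, the inverse order of Dbp, and from 11.31 to 11.74 elsewhere. Of the members Nr1d2 (r = 0.71) stood 975th and Per2 (0.70) stood 1030th in likeness to Dbp. The genes most and least like Dbp are likewise extremes of 11698 untested values of r, with the genotype means left in.

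Genes around the clock were taken as lists of textbook members. Of 12 partners and output factors, 1 rose and 1 fell in ob/ob vs. WT, where 11.1% of all probes were called, with a median log2 fold change of 0.07 where that of all probes was -0.08. In leptin-deficient vs. lean 0 were called, where 9.04% of all probes were. Bhlhe41 (Dec2), a repressor at E-boxes, read 5.49, 5.23 and 5.50 in WT and 5.87, 6.07 and 6.56 in ob/ob, and rose by 0.76 ± 0.19 (adjusted p = 0.0376). With the slide as a block its adjusted p was 0.0579. Cipc, an inhibitor of the Arntl and Clock pair, read 7.32, 6.73 and 6.40 in WT and 6.14, 5.83 and 5.49 in ob/ob, and fell by 1.00 on the log2 scale (adjusted p = 0.0431). Both pairs of groups were without overlap. Tef, a relative of Dbp, was not called by its brightest probe (-0.28, adjusted p = 0.287), but 2 dimmer probes of it were, at -1.31 (adjusted p = 0.0408) and -1.44 (adjusted p = 0.0409).

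**Figure D5:**
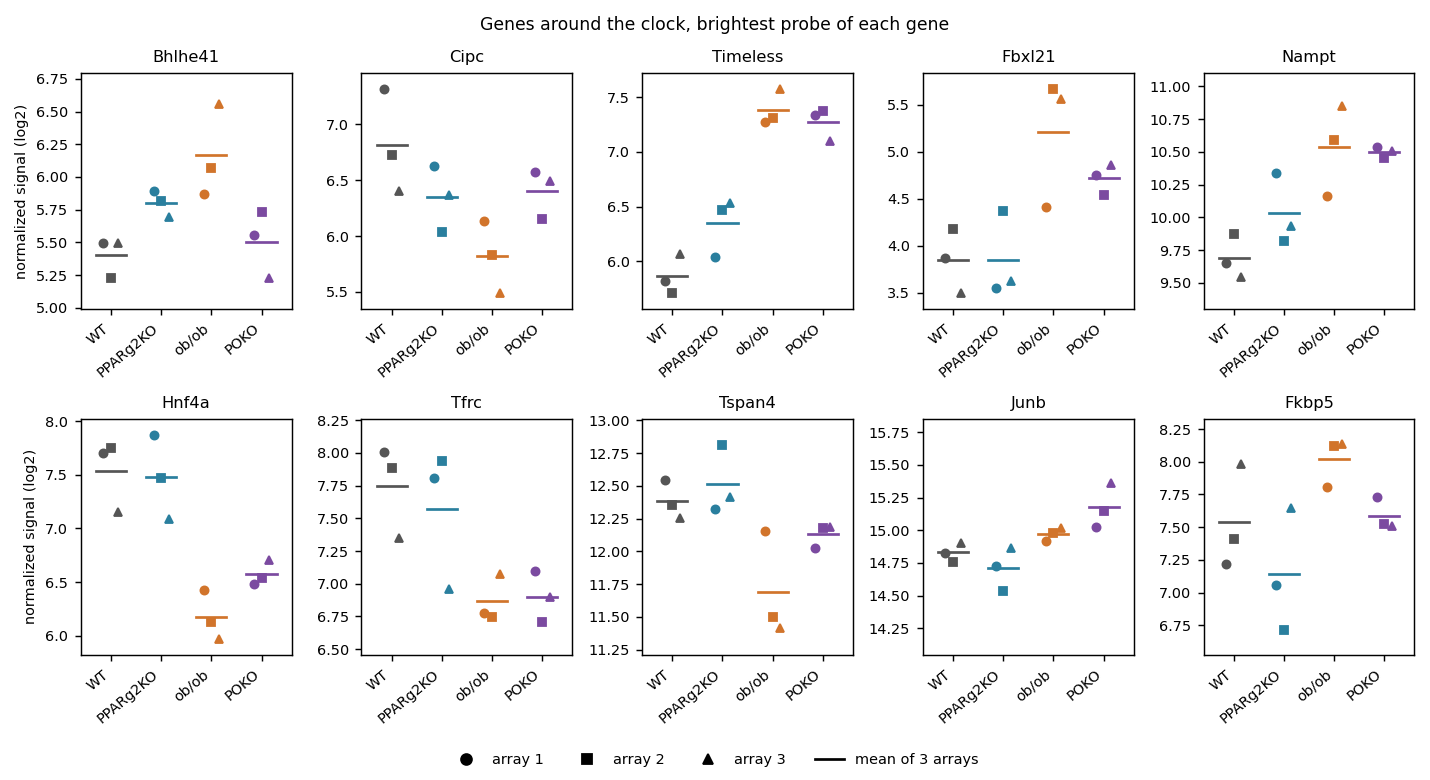
Normalized log2 signal (y axis, own range in each panel) of genes that act on, beside or downstream of the clock, by genotype (x axis), 3 arrays each, with a line for the mean. Timeless and Nampt are higher and Hnf4a and Tfrc lower in ob/ob and POKO than in WT, and the Fkbp5 arrays of ob/ob overlap those of WT.

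Of 12 kinases, ubiquitin ligases and binding partners of clock proteins, 2 rose in ob/ob vs. WT and 2 in leptin-deficient vs. lean, and none fell by its brightest probe. These counts lie near the 11.1% and 9.04% of all probes called. The list had a median of -0.06 for ob/ob vs. WT (-0.08 over all probes) and of 0.01 for leptin-deficient vs. lean (-0.06 over all probes), as log2 fold changes. Timeless, named for a fly clock gene and known in mammals chiefly for its work at the replication fork, read 5.82, 5.71 and 6.06 in WT and 6.04, 6.47 and 6.54 in PPARγ2KO. It read 7.27, 7.31 and 7.57 in ob/ob and 7.34, 7.37 and 7.10 in POKO, above every lean array. It rose by 1.52 ± 0.16 in ob/ob vs. WT (adjusted p = 0.00724), by 1.41 ± 0.16 in POKO vs. WT (adjusted p = 0.0211) and by 1.22 ± 0.11 in leptin-deficient vs. lean (adjusted p = 0.00434). With the slide as a block, the POKO vs. WT value had adjusted p = 0.0547. Fbxl21, an F-box protein of the cryptochromes, was above background on 0 of 3 WT arrays and 3 of 3 ob/ob arrays. Its ob/ob mean of 5.22 was 2.58-fold higher than that of WT at 3.85 (adjusted p = 0.0403), a fold against a signal not well above background. Dimmer probes of Csnk1d (2 of them) and Prkaa1 (1) fell in ob/ob vs. WT, where the brightest probes were not called (adjusted p = 0.605 and 0.314).

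Of 10 clock-controlled genes, 1 rose and 1 fell in ob/ob vs. WT, where 11.1% of all probes were called, and 1 rose and 3 fell in leptin-deficient vs. lean, where 9.04% were. The medians were -0.23 and -0.13, where those of all probes were -0.08 and -0.06. Nampt, the rate-limiting enzyme of NAD salvage, read 9.65, 9.87 and 9.55 in WT, 10.34, 9.82 and 9.94 in PPARγ2KO, 10.16, 10.59 and 10.85 in ob/ob, and 10.54, 10.45 and 10.50 in POKO. WT lay below ob/ob and POKO without overlap, but PPARγ2KO array 1 lay above ob/ob array 1. It rose by 0.85 ± 0.19 in ob/ob vs. WT (adjusted p = 0.0311) and by 0.66 ± 0.13 in leptin-deficient vs. lean (adjusted p = 0.0274). Hnf4a, a transcription factor of liver and islet, read 7.70, 7.75 and 7.16 in WT, 7.87, 7.47 and 7.09 in PPARγ2KO, 6.43, 6.13 and 5.97 in ob/ob, and 6.48, 6.54 and 6.71 in POKO. It fell by 1.36 in ob/ob vs. WT (adjusted p = 0.0183) and by 1.13 in leptin-deficient vs. lean (adjusted p = 0.0134), on the log2 scale. In leptin-deficient vs. lean Tfrc, the transferrin receptor, fell by 0.77 (adjusted p = 0.0389) and the tetraspanin gene Tspan4 by 0.54 (adjusted p = 0.0476), the latter with adjusted p = 0.0629 with the slide as a block.

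Signals that can reset a clock were looked at through 2 lists. Of 7 glucocorticoid-responsive genes 6 had a probe and 0 were called in any comparison by limma, where 0% to 11.1% of all probes were. At an unadjusted p below 0.05, 1 of 6 passed in leptin-deficient vs. lean (28.2% of all probes) and 2 in ob/ob vs. PPARγ2KO (19.3%). The count was 2 in PPARγ2-null vs. intact (3.76%) and 0 in the other 6 comparisons (9.28% to 31.1%). The difference from these shares was not tested. In leptin-deficient vs. lean the lowest p values of the list belonged to Fkbp5 (0.47 ± 0.18 in log2, adjusted p = 0.127) and Tsc22d3 (0.25 ± 0.12, adjusted p = 0.204). In that comparison the median was 0.18 for this list and 0.09 for the immediate early genes, where that of all probes was -0.06. Of 9 immediate early genes 1 was called, Junb, which rose by 0.31 ± 0.08 in leptin-deficient vs. lean (adjusted p = 0.0437), a count near the 9.04% of all probes called there.

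Apart from those of Timeless and Hnf4a, these list calls by the brightest probe lay close to the threshold, with adjusted p from 0.0274 to 0.0476 in the limma fit. Timeless in ob/ob vs. WT and in leptin-deficient vs. lean, and Hnf4a in leptin-deficient vs. lean, kept theirs with any 1 array left out, with adjusted p of at most 0.0273, 0.0180 and 0.0450. They also kept theirs under every other setting tried. The others lost theirs without at least 3 of the 12 arrays, taken out singly. A fit on ob/ob and WT alone ended the ob/ob vs. WT calls of Bhlhe41 (adjusted p = 0.120), Cipc (0.133), Fbxl21 (0.131), Nampt (0.107) and Hnf4a (0.0634). Scaling to the 75th percentile ended those of Cipc (0.0570) and Nampt (0.0534) there and of Junb (0.08 in log2, adjusted p = 0.535) in leptin-deficient vs. lean. Averaging a gene's probes ended those of Bhlhe41 (0.256) and of Fbxl21 (0.188, and 0.152 in leptin-deficient vs. lean). Normexp ended those of Fbxl21 (0.0676 and 0.0882), Tfrc (0.0509) and Tspan4 (0.0626), and the authors' value table that of Junb (0.0533). A call that also asks for a log2 difference of at least 1 left out Bhlhe41, Cipc, Nampt, Tfrc, Tspan4 and Junb by its construction. With 1 array left out, the largest adjusted p of Timeless in POKO vs. WT was 0.0960, without POKO array 1. In ob/ob vs. WT that of Bhlhe41 was 0.123, without WT array 2. Those of Cipc and Fbxl21 there were 0.130 and 0.122, without ob/ob array 3. In leptin-deficient vs. lean the largest were 0.0791 for Fbxl21, 0.0731 for Nampt and 0.109 for Tspan4, each without POKO array 1. They were 0.0924 for Tfrc without PPARγ2KO array 1 and 0.0955 for Junb without WT array 2. In ob/ob vs. WT they were 0.0921 for Nampt without WT array 1 and 0.0735 for Hnf4a without WT array 2.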

How the data were processed

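Per the file headers, Agilent Feature Extraction 10.1.1.1 (also in the submitters' processing notes) read the spots of the deposited arrays and wrote background-subtracted processed signals, as intensity, with flags. The authors also deposited a log2 value table. It was used only as an alternative: its column medians of 4.88 to 4.91 fit quantile-normalized log2 signals, with no centring of genes.

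Here the processed signal of 43379 non-control spots was quantile-normalized as in the study's methods and put on the log2 scale. The 919 outlier spots were left out (none in the brightest probe of a clock gene), 0 were saturated, and spots of a probe were averaged. limma 3.58.1 (R 4.3.3, lmFit and eBayes) fitted genotype over all 12 arrays, with Benjamini-Hochberg over 41174 probes, and a probe was called at an adjusted p of at most 0.05. The array as a block, named in the study's methods, could not be fitted in 1 colour. Symbols came from RefSeq accessions (GRCm38.p6 tables): 25097 probes have a symbol and 16077 none. The number of arrays, 3 per genotype, limits the precision. Each array is a pool of mice, and nothing in the labels says how pools were kept apart, so p-values measure the spread between these arrays. For probes below background on every array of a group, the fold was taken against the higher of the probe's own signal and a floor. That floor was the lowest signal called well above background on each array. For Per3 and Fbxl21 the probe's own signal was the higher, so their folds are estimates and not lower limits.

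The members and gene lists were chosen with earlier results of these data known. Named are all members by their brightest probe, list genes called in any comparison (otherwise the 2 with the lowest p in leptin-deficient vs. lean), the 5 genes most and least like Arntl and Dbp, and Pparg. Mt2 and the dimmer probes of list genes were chosen after their values were seen. Same-numbered arrays share a slide and scan day, per the file headers; their deviations from the group means correlated at -0.134 to 0.184 (median 0.0274 over 18 pairs, 4 over 0.1). The fit was tested on simulated data. Alternatives were other scalings, background correction, filters, blocks, probe choice, a fold criterion and each array left out.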

Additional observations from a re-analysis of the deposited data

How the results depend on the processing

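Under the alternatives tried, the counts of clock genes called were 0 in all 9 comparisons, except without ob/ob array 1. Leaving out each array in turn gave 0 to 2 members called in ob/ob vs. WT, 0 to 2 in ob/ob vs. PPARγ2KO and 0 to 1 in leptin-deficient vs. lean. Of all probes 11.1% were called in ob/ob vs. WT and 9.04% in leptin-deficient vs. lean, and 12.5% and 11.7% without ob/ob array 1. Among the 17 member probes the count called was 1 in each of these comparisons with all arrays. Over the arrays left out it ran from 0 to 3 and from 0 to 2. It was 0 in both with 75th percentile scaling. It was 0 in ob/ob vs. WT with only the compared groups in the fit, and 0 in leptin-deficient vs. lean with normexp on the median signal or with a call that also asks for a log2 difference of 1 or more in size. Scaling to the 75th percentile moved the median over all probes, for ob/ob vs. WT, from -0.08 to -0.19. Of the 90 log2 fold changes of members, 85 kept their direction with it, 89 with normexp, 77 with a gene's probes averaged, and 74 to 89 over the arrays left out. With probes averaged, Per2 in ob/ob vs. WT reversed to -0.34. The replicate block, which is also the slide and scan day block, left 0 members and 1 member probe called in both comparisons and changed no clock gene's call. None of the Arntl relations passed under any setting. The members with their largest SD in ob/ob numbered 6 (probes averaged) to 9. Normexp on the mean signal could not be run, since the files hold the median; normexp on the median signal, the 45 pairs and the SD counts were added after seeing the data. The cause of each change was not tested. Signal over background limits Cry1 and Per3, whose probes were not above background on every array.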
